A study of Homo sapiens with 18 samples.

Results

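MAFA and its relatives MAF, MAFF, MAFG and MAFK are the subject here, followed through all 18 RNA-seq libraries of OVCAR-3 cells. These 5 genes were taken by symbol from the 58825 genes of the count tables, after the Ensembl identifiers had been mapped to symbols. MAFA was selected on its 4 h counts, for a very large early difference between treated and control cells, so its comparisons with DMSO are given as a description without a test, and the other 4 genes were added as members of its family. Transcripts of 4 of the 5 genes were abundant enough to be tested, whereas MAF was not.

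OVCAR-3 is an established human cell line of high-grade serous ovarian carcinoma. The cells were kept in stripped media and received 1 µM i-BET858, which the study describes as a bivalent inhibitor of all BET bromodomain proteins, 1 µM i-BET151, an earlier BET inhibitor, or DMSO, the vehicle. Poly-A RNA was sequenced after 4 and 24 h, with 3 biological replicates for each of the 6 conditions. All conditions therefore share 1 cell line, and each inhibitor was used at a single concentration.

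Total counts ranged from 27323969 to 46299994 per library, with a median of 32267434. Levels are given in CPM, in which a count is scaled by library depth and TMM factor. A count of 0 allows up to 3, or 0.0653 to 0.109 CPM in these libraries, a limit that takes in counting error alone. The 6 libraries of replicate 3 had counts for 17817 to 20642 genes and the others for 23674 to 24947, so results that turn on replicate 3 are also given without it. All 12 serous ovarian carcinoma markers had counts in every condition, with summed levels of 6893 to 12125 CPM per library, the lowest in cells treated for 24 h. Summed levels were at most 2.10 CPM for 4 leukocyte markers, 5.37 CPM for 3 endothelial markers and 50.3 CPM for 4 fibroblast markers. In cultured cells sequenced in bulk, fewer cells that make a transcript and less of that transcript per cell cannot be told apart.

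MAF proteins are basic leucine zipper transcription factors that bind DNA elements called MAREs. The large MAFs, among them MAFA, MAF and NRL, carry an activation domain. MAFA is known for driving insulin transcription in pancreatic beta cells, MAF for lens and T cell differentiation and as an oncogene of myeloma, and NRL for rod photoreceptors. The small MAFs, which are MAFF, MAFG and MAFK, lack that domain and act as obligate partners of the CNC factors NRF1, NRF2, NRF3, p45 NFE2, BACH1 and BACH2, with which they bind antioxidant response elements. Pairs of small MAFs alone repress such elements.

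On GRCh38, MAF (ENSG00000178573) lies on the minus strand of chromosome 16 at 79585843 to 79600737. MAFG (ENSG00000197063) lies on the minus strand of chromosome 17 at 81918270 to 81927735, MAFK (ENSG00000198517) on the plus strand of chromosome 7 at 1530702 to 1543043, and MAFF (ENSG00000185022) on the plus strand of chromosome 22 at 38200767 to 38216507. Like MAFA, these are protein-coding genes. The strand setting of the counting is not given in the sources used here, so reads from exons shared with an opposite gene could not be assigned with certainty. MAFK shares 809 bp of exon with TMEM184A, MAFF 326 bp with PLA2G6 and MAFG 224 bp with an unnamed antisense RNA, while 105 bp of MAFG are shared with SIRT7 on its own strand.

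RefSeq promoter windows of GRCh38.p14 were at hand for MAF, MAFF and MAFG. The 250 bases before the start are shown for MAFG, because a non-coding RNA starts within them in the opposite direction and fell with it at 4 h, and for the first of the 2 MAFF starts, because MAFF differed from MAFG in direction. Each is written 5′ to 3′ on the strand of the gene, and capitals mark the motifs that were found. The MAFG window is chr17:81927736-81927985 on the minus strand and the MAFF window chr22:38201744-38201993 on the plus strand.
MAFG: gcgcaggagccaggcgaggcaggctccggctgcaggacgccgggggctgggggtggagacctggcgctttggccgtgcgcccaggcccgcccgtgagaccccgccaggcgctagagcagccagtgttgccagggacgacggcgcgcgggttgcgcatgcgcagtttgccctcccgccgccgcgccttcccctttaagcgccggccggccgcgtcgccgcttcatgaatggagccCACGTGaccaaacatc
MAFF: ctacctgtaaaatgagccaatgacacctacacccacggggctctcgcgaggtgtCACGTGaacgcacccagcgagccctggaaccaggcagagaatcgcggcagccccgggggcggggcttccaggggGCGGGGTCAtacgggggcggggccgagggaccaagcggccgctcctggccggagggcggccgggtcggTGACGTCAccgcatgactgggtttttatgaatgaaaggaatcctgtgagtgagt

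Both strands were searched for the palindromic elements T-MARE and C-MARE, the antioxidant response element core TGACNNNGC, the AP-1 site TGANTCA, whose letters lie inside T-MARE, the cAMP response element TGACGTCA and the E-box CACGTG. The E-box was found in the windows of both genes, at −16 in MAFG and at −196 in MAFF, and at −81 of the second MAFF start, positions being those of its first base before the transcription start. It occurs in 6.34% of the 35116 promoter windows of the same length. The cAMP response element stood at −54 in the first MAFF window and at −45 in MAF and occurs in 1.65% of windows. The antioxidant response element core was found on the opposite strand of the first MAFF window at −122 and occurs in 10.9% of windows. The other motifs were not found in these 4 windows, and of all windows 0 hold T-MARE and 2 hold C-MARE.

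Among the large MAFs, MAFA (ENSG00000182759, chromosome 8, 143419182 to 143430732, minus strand, no exon shared with another gene) was almost silent in control cells and present in every treated library. At 4 h its counts were 21, 16 and 0 with DMSO in replicates 1, 2 and 3, against 1760, 1952 and 1853 after i-BET858 and 901, 808 and 836 after i-BET151. In CPM these were 0.645, 0.412 and 0 with DMSO, 64.2, 64.0 and 52.6 for i-BET858, and 31.3, 29.4 and 23.5 for i-BET151. The 3 groups did not overlap, and in each replicate the level with i-BET858 was the highest.

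The fitted log2 fold changes against DMSO at 4 h were 7.39 (SE 0.49, n = 3 against 3) for i-BET858 and 6.28 (SE 0.48) for i-BET151. MAFA thus ranked 7 and 8 by fold change among the 17192 genes tested at that time. Because replicate 3 had no MAFA count with DMSO, the fold was also taken from the counts. Over replicates 1 and 2 together the ratio of depth-scaled counts was 124 (95% interval for counting error 89.6 to 176) with i-BET858 and 58.6 (42.3 to 83.4) with i-BET151. In replicate 3, against the limit of 3 counts in that DMSO library, MAFA was at least 559.7-fold higher with i-BET858 and at least 249.8-fold higher with i-BET151. The level with i-BET858 was 2.15 times that with i-BET151, and the log2 ratio of the inhibitors was 1.04, 1.12 and 1.16 in the 3 replicates.

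**Figure D1:**
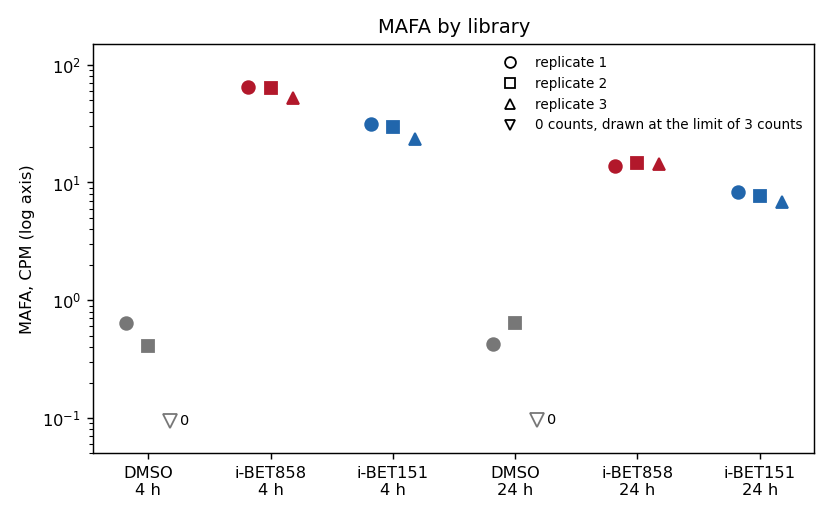
MAFA level in CPM on a log axis in each of the 18 libraries, by treatment and time. The 12 treated libraries lie between 6.84 and 64.2 CPM, the DMSO libraries of replicates 1 and 2 lie between 0.412 and 0.645 CPM, and the DMSO libraries of replicate 3 had 0 counts and are drawn at the limit of 3 counts.

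The 24 h libraries were not used to choose MAFA, but the gene passed the filter on low counts only through the treated ones, so its difference from DMSO is again given without a test. Counts were 14, 19 and 0 with DMSO, 630, 530 and 489 after i-BET858, and 341, 254 and 235 after i-BET151. The corresponding levels were 0.424, 0.640 and 0 CPM, then 13.7, 14.7 and 14.3 CPM, and 8.32, 7.72 and 6.84 CPM. Again no group overlapped another, and the i-BET858 libraries were the highest. The fitted log2 fold change was 5.29 (SE 0.55) for i-BET858 and 4.41 (SE 0.55) for i-BET151, and the treated library was the higher in all 9 pairings with DMSO for each inhibitor.

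Over replicates 1 and 2 the ratio of depth-scaled MAFA counts at 24 h was 26.9 (95% interval for counting error 19.0 to 39.3) with i-BET858 and 15.3 (10.8 to 22.5) with i-BET151. In replicate 3, against the limit of 3 counts, the ratios were 149.7 and 71.6, which again are not lower bounds. Mean levels were therefore lower at 24 h than at 4 h, by a ratio of 4.23 with i-BET858 (60.3 ± 6.64 against 14.2 ± 0.507 CPM, SD, n = 3) and of 3.68 with i-BET151 (28.0 ± 4.06 against 7.63 ± 0.746 CPM). DMSO levels were 0.352 ± 0.326 and 0.355 ± 0.325 CPM. MAFA ranked 18 and 23 by fold change among 17157 genes at 24 h. At matched dose and time, the log2 difference between i-BET858 and i-BET151 at 24 h was 0.88 (95% interval −0.05 to 1.82, adjusted p = 0.475), with i-BET858 higher in 9 of 9 pairs. This difference passed the threshold without a filter on low counts (0.91, adjusted p = 0.0324), when the DMSO library of replicate 3 was left out (0.89, adjusted p = 0.0494) and in replicates 1 and 2 alone (0.83, adjusted p = 0.00480, edgeR).

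Of the genes next to MAFA, only ZC3H3 was abundant enough to be tested, and edgeR did not call it higher in any comparison with DMSO. MAFA-AS1, which lies 32 bp from MAFA on the opposite strand, had 0 to 6 counts in every library, and LINC02990 had 0 to 14. Both had 0 counts in every library of replicate 3, treated or DMSO. ZC3H3, which encodes a zinc finger protein of mRNA export and lies 6927 bp away on the same strand, fell with i-BET858 at 4 h (log2 fold change −0.91, SE 0.14, edgeR adjusted p = 4.74e-04). At 24 h its log2 fold change was 0.06 (adjusted p = 0.759).

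MAF itself was barely detected. All 6 DMSO libraries had 0 counts. With i-BET858 there were 2, 3 and 16 counts at 4 h and 1, 1 and 0 at 24 h, and with i-BET151 there were 3, 2 and 0 and then 1, 0 and 0. Only the i-BET858 library of replicate 3 at 4 h, at 0.454 CPM, stood well above the limit of 3 counts, and MAF failed the filter in every comparison. Without the filter it was called higher with i-BET858 at 4 h.

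NRL, a large MAF outside the 5, was detected at a low level. Its level was 0.681 to 3.16 CPM over all libraries. It fell with i-BET858 at 4 h (log2 fold change −1.19, SE 0.38, edgeR adjusted p = 0.0326), but not in replicates 1 and 2 alone (−0.71, adjusted p = 0.0977) or without a filter on low counts (adjusted p = 0.0938).

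Calls were counted over the other 4 genes, of which MAFF, MAFG and MAFK were tested. A gene was called when its adjusted p was under 0.05 and its fold change at least 2. With i-BET858 at 4 h MAFK was called, as lower, where 14.1% of all genes tested met this rule. With i-BET151 at 4 h, and with either inhibitor at 24 h, edgeR and DESeq2 called 0 of the 4, where 7.10%, 18.8% and 13.7% of all genes were called by edgeR, and an unadjusted p under 0.05 was reached by 1, 3 and 2 of them. Between the inhibitors both tools called 0 at either time, where edgeR called 0.209% of genes at 4 h and 0.0641% at 24 h. An unadjusted p under 0.05 (edgeR) was reached by 2 of the 4 genes at 4 h and 1 at 24 h. Over all genes, 871 of 17192 reached it upward and 1171 downward at 4 h, and 841 and 1112 of 17157 at 24 h. Both inhibitors were compared with the same DMSO libraries.

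**Figure D2:**
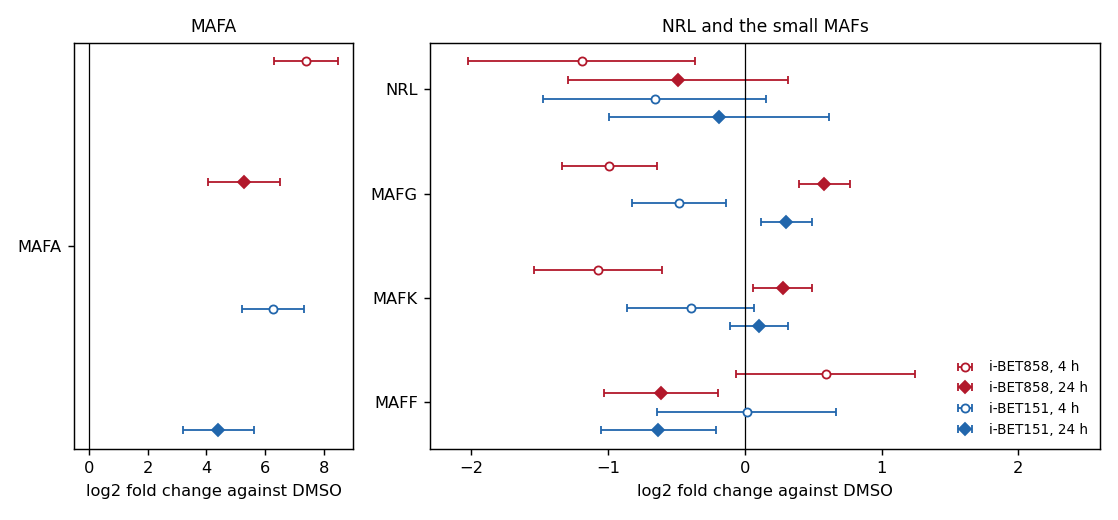
Log2 fold change against DMSO with its 95% interval (edgeR) for MAFA on the left and for NRL and the small MAFs on the right, by inhibitor (colour) and time (open circles 4 h, filled diamonds 24 h). MAFA lies between 4.41 and 7.39, and MAFG and MAFK lie below 0 at 4 h and above 0 at 24 h with both inhibitors. For MAFA, which was chosen on its 4 h counts, the intervals are a description and not a test.

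The small MAFs MAFG and MAFK were lower with i-BET858 at 4 h and higher at 24 h. MAFG, the most abundant of the 3, had 83.0, 96.8 and 106 CPM with DMSO at 4 h, 37.8, 56.6 and 48.9 CPM with i-BET858, and 63.4, 71.8 and 69.9 CPM with i-BET151. Every i-BET858 library lay below every i-BET151 library, and these in turn lay below every DMSO library. MAFG fell with i-BET858 (log2 fold change −0.99, SE 0.16, edgeR adjusted p = 6.77e-04), just under the 2-fold limit for a call. It was over that limit with the replicate block (adjusted p = 2.00e-06), with total library size, without a filter on low counts, and without replicate 1 of DMSO or replicate 2 or 3 of i-BET858, and in these fits MAFG was called lower. With i-BET151 the value was −0.48 (SE 0.16, adjusted p = 0.0595), which passed the threshold in 8 of the alternatives, among them the replicate block (adjusted p = 0.00231) and DESeq2 (adjusted p = 0.0378). Others were the fits without the i-BET858 library of replicate 1 (adjusted p = 0.0330) or of replicate 2 (adjusted p = 0.0446).

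After 24 h the order of the MAFG levels was turned around. DMSO libraries had 81.9, 79.2 and 76.8 CPM, i-BET858 libraries 122, 117 and 127 CPM, and i-BET151 libraries 102, 101 and 94.6 CPM. The groups again did not overlap, with i-BET858 now the highest. MAFG rose with i-BET858 (0.58, SE 0.09, adjusted p = 3.02e-04) and i-BET151 (0.30, SE 0.08, adjusted p = 0.0181). The i-BET151 value missed the threshold without the DMSO library of replicate 2 (adjusted p = 0.0738) or the i-BET151 library of replicate 1 (0.0733) or 2 (0.0644), without a filter on low counts (0.0926) and in a fit of all 18 libraries (0.0578).

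The change of the effect between the times was tested in a fit of all 18 libraries. For MAFG it was 1.62 on the log2 scale (SE 0.18, adjusted p = 6.68e-06) with i-BET858 and 0.81 (SE 0.18, adjusted p = 0.00608) with i-BET151. In replicates 1, 2 and 3 the log2 ratio of i-BET858 to DMSO was −1.13, −0.77 and −1.12 at 4 h and 0.58, 0.56 and 0.72 at 24 h. Between the inhibitors MAFG differed by −0.51 at 4 h (95% interval −0.86 to −0.16, adjusted p = 0.178, and 0.00534 with the replicate block, 0.0320 in the fit of all 18 libraries) and by 0.28 at 24 h (0.09 to 0.46, adjusted p = 0.227). Among DMSO libraries the 24 h against 4 h value was −0.27 (adjusted p = 0.545).

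MAFK went the same way at a lower level. It had 33.9, 37.4 and 42.8 CPM with DMSO at 4 h, 18.9, 23.4 and 11.8 CPM with i-BET858, and 28.3, 30.2 and 28.4 CPM with i-BET151. No group overlapped another, and the i-BET858 library of replicate 3 was the lowest. MAFK fell with i-BET858 (log2 fold change −1.07, SE 0.21, edgeR adjusted p = 0.00278), and was −0.40 with i-BET151 (SE 0.21, adjusted p = 0.241). The fold change with i-BET858 was under 2 in replicates 1 and 2 alone (−0.75, adjusted p = 0.00227), without the i-BET858 library of replicate 3 (−0.84, adjusted p = 0.00267) and without the DMSO library of replicate 3 (−0.98, adjusted p = 0.0135), so the call, though not the fall, rested on replicate 3.

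At 24 h MAFK stood at 31.7, 31.1 and 28.3 CPM with DMSO, 39.3, 35.2 and 38.9 CPM with i-BET858, and 32.5, 34.4 and 32.6 CPM with i-BET151. The DMSO libraries were the lowest and the i-BET858 libraries the highest, without overlap. The log2 fold changes were small, at 0.27 (SE 0.10, adjusted p = 0.0420) with i-BET858 and 0.10 (SE 0.10, adjusted p = 0.456) with i-BET151. The first missed the threshold in 12 of the alternatives, among them those without any 1 of 7 libraries of that time (adjusted p of 0.0593 to 0.140 there). The change of the effect between the times was 1.39 (SE 0.24, adjusted p = 3.88e-04) with i-BET858, and in replicates 1 and 2 alone 0.98, which is under a 2-fold change. With i-BET151 it was 0.52 (SE 0.24, adjusted p = 0.172). Between the inhibitors MAFK differed by −0.68 at 4 h (95% interval −1.14 to −0.21, adjusted p = 0.184, 0.0232 with the replicate block, 0.0195 without a filter and 0.0382 in the fit of all 18 libraries) and by 0.17 at 24 h (−0.04 to 0.39, adjusted p = 0.586).

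By the adjusted p alone, MAFG and MAFK were thus lower at 4 h and higher at 24 h with i-BET858, as were 1.62% of the 16570 genes tested at both times. With i-BET151 no listed gene met that rule, and 0.356% of genes did. With the replicate block MAFG met it (adjusted p = 0.00231 at 4 h and 0.00687 at 24 h). In those fits 2931 of 17192 genes were lower at 4 h and 3988 of 17157 higher at 24 h by adjusted p. The share of all genes that met both with the block is not given here. TMEM184A, whose exon overlaps MAFK on the opposite strand, fell at 24 h with i-BET858 (−1.93, adjusted p = 8.77e-05) and i-BET151 (−1.88, adjusted p = 1.67e-04), opposite in sign to MAFK. At 4 h it also fell with i-BET858 (−0.66, adjusted p = 0.0189) and i-BET151 (−0.60, adjusted p = 0.0476), then with the same sign as MAFK. How far the shared exon entered either count was not tested.

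MAFF, a small MAF known to be induced by stress, differed from the other two. At 4 h it had 9.58, 19.6 and 19.99 CPM with DMSO, 27.7, 29.7 and 16.4 CPM with i-BET858, and 17.4, 19.5 and 12.8 CPM with i-BET151. These groups overlapped, and the DMSO library of replicate 1 was the lowest of all 9. The log2 fold change was 0.59 (SE 0.30, edgeR adjusted p = 0.165) with i-BET858 and 0.01 (SE 0.30, adjusted p = 0.984) with i-BET151. In replicate 3 alone both values were negative, at −0.28 and −0.64, whereas replicates 1 and 2 alone gave 0.97 with i-BET858 (adjusted p = 0.00848). Without a filter on low counts that value was 0.58 (adjusted p = 0.0319).

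At 24 h the MAFF levels were 8.99, 11.2 and 10.4 CPM with DMSO, 7.29, 8.03 and 5.23 CPM with i-BET858, and 6.88, 6.57 and 6.58 CPM with i-BET151. All treated libraries lay below all DMSO libraries. MAFF fell with i-BET858 (−0.61, SE 0.19, adjusted p = 0.0233) and i-BET151 (−0.63, SE 0.19, adjusted p = 0.0246). Leaving out 1 library raised the adjusted p of either fall to at most 0.0920, with the threshold missed for both inhibitors without the DMSO library of replicate 2 or 3. It was also missed for i-BET858 without its replicate 1 (0.0532) or 3 (0.0717), and for i-BET151 without its replicate 1 (0.0585) or 2 (0.0807). Without a filter on low counts the adjusted p was 0.0706 for i-BET858 and 0.0518 for i-BET151, and in a fit of all 18 libraries 0.102 and 0.0937. The 2 inhibitors differed by 0.02 at 24 h (95% interval −0.40 to 0.44).

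For MAFF the effect of i-BET858 changed by −1.16 from 4 to 24 h (SE 0.37, adjusted p = 0.0278), opposite in sign to MAFG and MAFK. That call was lost without any 1 of 5 libraries, with adjusted p of 0.0639 to 0.0731 (DMSO and i-BET858 of replicate 1 and i-BET858 of replicate 2 at 4 h, DMSO of replicate 2 and i-BET858 of replicate 3 at 24 h). With i-BET151 the change was −0.63 (SE 0.37, adjusted p = 0.304). Among DMSO libraries the 24 h against 4 h value of MAFF was −0.69 (SE 0.26, edgeR adjusted p = 0.401). In total, 3 of the 4 genes other than MAFA were called for a change of the i-BET858 effect, MAFG and MAFK higher and MAFF lower, against 15.1% of all genes, and 0 for i-BET151, against 6.70%. For i-BET151, 2 of the 4 had an unadjusted p under 0.05 (edgeR), and DESeq2 called 0. Over all 18154 genes, 2582 reached that unadjusted p upward and 2393 downward. MAFA is left out of these counts because its 4 h values chose it. Its value was −2.06 for i-BET858 (−2.74 to −1.37 with a library left out) and −1.86 for i-BET151 (−2.53 to −1.16).

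**Figure D3:**
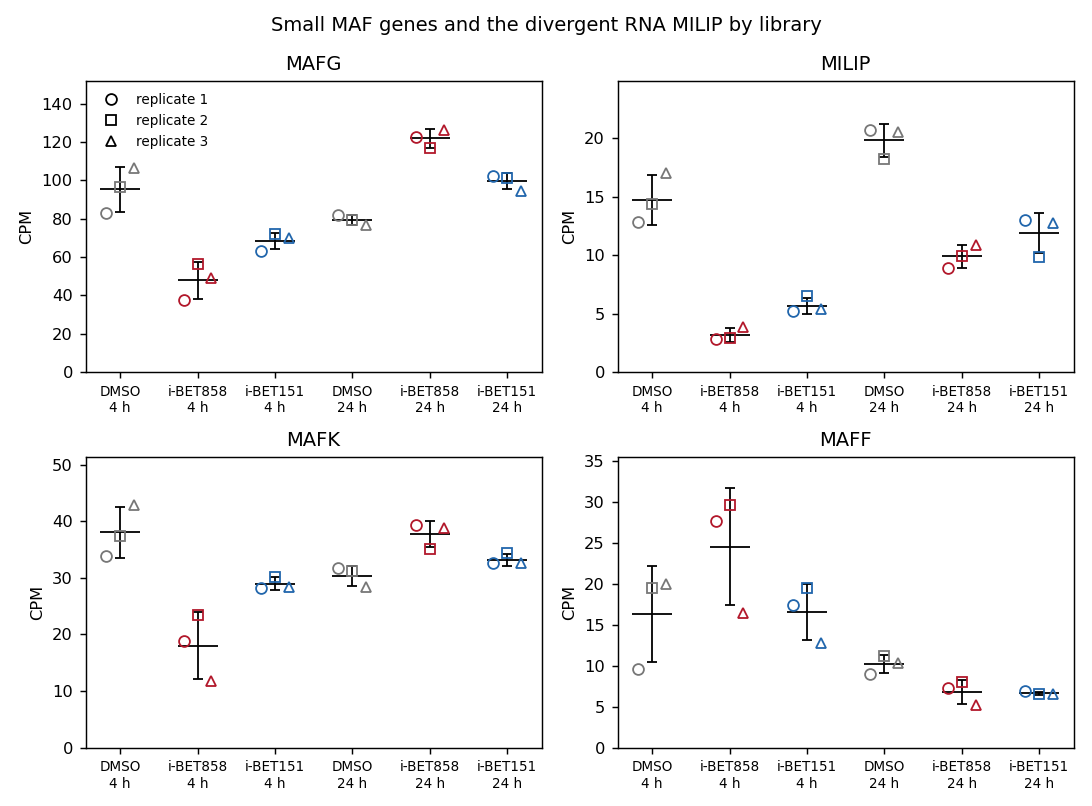
Levels in CPM of the small MAF genes MAFG, MAFK and MAFF and of MILIP in each library, with the mean and SD of 3 replicates as a line and bars. MAFG and MAFK have their lowest levels with i-BET858 at 4 h, MILIP stays below its DMSO levels at both times, and the MAFF groups overlap at 4 h.

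MILIP, a long non-coding RNA, starts 94 bp from MAFG at 81927829 on the plus strand of chromosome 17, inside the promoter window shown for MAFG, and shares no exon with it. It had 12.8, 14.4 and 17.0 CPM with DMSO at 4 h, 2.81, 2.89 and 3.89 CPM with i-BET858, and 5.21, 6.47 and 5.36 CPM with i-BET151. At 24 h it had 20.7, 18.2 and 20.5 CPM, then 8.92, 9.94 and 10.9 CPM, and 13.0, 9.88 and 12.7 CPM. Treated libraries lay below DMSO libraries at both times. MILIP fell with i-BET858 (log2 fold change −2.20, SE 0.22, edgeR adjusted p = 2.66e-05) and i-BET151 (−1.38, SE 0.21, adjusted p = 0.00118) at 4 h, when MAFG was also lower. At 24 h MILIP was still down (−1.04, SE 0.16, adjusted p = 3.68e-04, and −0.76, SE 0.16, adjusted p = 0.00353), whereas MAFG was up.

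Of the other genes within 20 kb of MAFG, PCYT2, an enzyme of phosphatidylethanolamine synthesis, rose in all 4 comparisons with DMSO (0.67 and 0.66 at 4 h, 0.84 and 0.82 at 24 h, adjusted p of at most 0.00547). PYCR1, an enzyme of proline synthesis, fell at 24 h with i-BET858 (−2.87, adjusted p = 1.05e-06) and i-BET151 (−2.22, adjusted p = 7.36e-06). SIRT7, a nuclear deacylase, rose with i-BET858 at 24 h (0.83, adjusted p = 0.0205), and with the replicate block in the other 3 comparisons too (adjusted p of at most 0.0164). PLA2G6, a phospholipase that overlaps MAFF, passed no threshold, with adjusted p of 0.577 to 0.970.

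Per kilobase of exon, MAFG led the small MAFs in every condition. In RPKM over all annotated exons (CPM per kilobase), MAFG had 18.2 ± 2.24 with DMSO at 4 h (SD, n = 3), MAFK 8.51 ± 1.00, MAFF 2.92 ± 1.05 and MAFA 0.125 ± 0.116. Over the longest transcript alone MAFF had 4.99, MAFG 18.8 and MAFK 11.3 RPKM. With i-BET858 at 4 h the order of these 4 genes was MAFA (21.3 ± 2.35), MAFG (9.12 ± 1.81), then MAFF (4.38 ± 1.27) and MAFK (4.04 ± 1.31), the last pair within 1 SD of each other. At 24 h with i-BET858 it was MAFG (23.3 ± 0.938), MAFK (8.45 ± 0.507), MAFA (5.04 ± 0.179) and MAFF (1.22 ± 0.258).

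Summed over MAFF, MAFG and MAFK, the level of the small MAFs was 29.6 ± 4.20 RPKM with DMSO at 4 h (SD, n = 3), 17.5 ± 3.36 RPKM after i-BET858 and 22.5 ± 1.29 RPKM after i-BET151. All 6 treated libraries at 4 h lay below the lowest DMSO library, which had 25.1 RPKM. At 24 h the sum was 23.7 ± 0.783 RPKM with DMSO, 32.9 ± 1.19 RPKM after i-BET858 and 27.6 ± 0.926 RPKM after i-BET151, and the treated libraries all lay above the DMSO libraries.

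The make-up of the small MAFs also differed. MAFF held 9.65 ± 2.51% of the summed RPKM with DMSO at 4 h, 24.9 ± 5.25% after i-BET858 and 13.1 ± 2.34% after i-BET151. The i-BET858 libraries stood apart from DMSO, whereas the i-BET151 libraries overlapped with it. At 24 h its share was 7.66 ± 0.931% with DMSO, 3.73 ± 0.895% after i-BET858 and 4.32 ± 0.142% after i-BET151, with every treated library below every DMSO library. MAFG held 52.4% to 63.7% on average in the DMSO and 4 h conditions, and 70.6% and 68.8% at 24 h after i-BET858 and i-BET151. The mean share of MAFK lay between 22.7% and 28.8%. Over the longest transcript in place of all exons, the share of MAFF was 13.9%, 33.4% and 18.5% at 4 h and 11.2%, 5.61% and 6.46% at 24 h, in the same order of conditions. These sums and shares are given without a test.

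**Figure D4:**
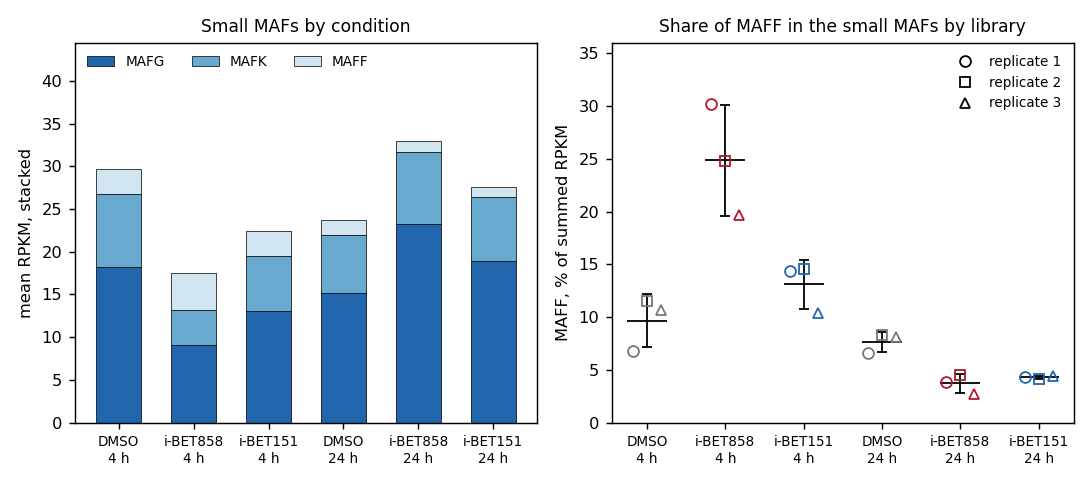
Left, mean RPKM of the 3 small MAFs, stacked by gene, in each condition. Right, share of MAFF in their summed RPKM in each library with the mean and SD of 3 replicates, which is highest with i-BET858 at 4 h (24.9%) and lowest with i-BET858 at 24 h (3.73%).

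The partners of the small MAFs and KEAP1, which targets NRF2 for degradation, form a list of 7 genes, all of them tested. With i-BET858 at 4 h 2 of the 7 fell and 0 rose by adjusted p, against 16.3% and 14.5% of all genes. With i-BET151 1 fell and 0 rose, against 8.43% and 7.81%. At 24 h 3 fell and 2 rose with i-BET858, against 21.3% and 20.5%, and 4 fell and 2 rose with i-BET151, against 16.6% and 17.2%. The list's median log2 fold change was −0.18 and −0.23 at 4 h and −0.40 and −0.43 at 24 h, beside medians of all genes between −0.01 and 0.02.

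KEAP1 fell in all 4 comparisons. Its levels were 115 to 122 CPM with DMSO at 4 h, 39.0 to 56.1 CPM with i-BET858 and 57.6 to 63.2 CPM with i-BET151. The log2 fold changes were −1.26 (SE 0.14, edgeR adjusted p = 6.32e-05) and −0.96 (SE 0.14, adjusted p = 9.14e-04) at 4 h, and −0.52 (SE 0.11, adjusted p = 0.00268) and −0.71 (SE 0.11, adjusted p = 6.01e-04) at 24 h. NFE2L2, which encodes NRF2, fell with i-BET858 at 4 h (−0.78, SE 0.15, adjusted p = 0.00236) and with both inhibitors at 24 h (−0.40, adjusted p = 0.0300, and 0.0577 in a fit of all 18 libraries; −0.43, adjusted p = 0.0276, and 0.0523 with only the 2 groups compared). It was −0.47 with i-BET151 at 4 h (adjusted p = 0.0543, and 0.00316 with the replicate block).

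NFE2L1, which encodes NRF1 of the CNC family, rose at 24 h with i-BET858 (0.65, SE 0.12, edgeR adjusted p = 0.00144) and i-BET151 (0.53, SE 0.12, adjusted p = 0.00653). NFE2L3, which encodes NRF3, fell at 24 h (−0.81, adjusted p = 3.71e-04, and −0.66, adjusted p = 0.00189). The repressor gene BACH1 did not pass the threshold in any of the 4 comparisons, with values of 0.47, 0.34, 0.30 and 0.21, but passed it for i-BET858 with the replicate block (adjusted p = 0.00489 at 4 h and 0.0286 at 24 h). BACH2 rose at 24 h (0.85, adjusted p = 0.0383, and 0.92, adjusted p = 0.0336), although in replicates 1 and 2 alone the i-BET151 value was 0.46 (adjusted p = 0.0663) and in a fit of all 18 libraries the adjusted p was 0.0598 and 0.0561. With total library size it was 0.0601 for i-BET858. NFE2, the haematopoietic partner, was called lower with i-BET151 at 24 h (−3.53, SE 0.77, adjusted p = 0.00515) at a mean of only 0.893 CPM over all libraries.

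**Figure D5:**
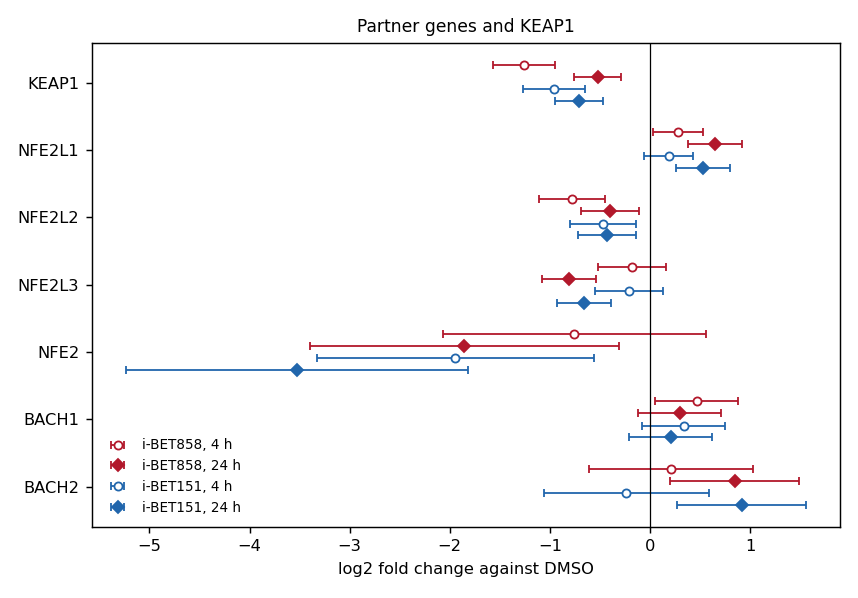
Log2 fold change against DMSO with its 95% interval (edgeR) for KEAP1 and the 6 genes of CNC and BACH partners, by inhibitor (colour) and time (open circles 4 h, filled diamonds 24 h). KEAP1 lies between −1.26 and −0.52 in the 4 comparisons, and NFE2 has the widest intervals.

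Genes known as targets of small MAF heterodimers with NRF2 or BACH1 were read from a list of 17. With i-BET858 at 4 h, 9 rose and 1 fell, against 14.5% and 16.3% of all genes, and the median was 0.53 beside 0.02 over all genes. GCLC, the catalytic subunit of glutathione synthesis, rose by 1.22 (SE 0.12, edgeR adjusted p = 3.03e-05) and HMOX1, haem oxygenase, by 2.85 (SE 0.23, adjusted p = 7.16e-06), while OSGIN1 (1.22) was also called. ABCC2 (2.21), counted among the 9, had 7 to 9 counts in the DMSO libraries of 4 h. It passed the filter only through treated libraries, so its difference is given without a test. With i-BET151 3 rose and 1 fell, against 7.81% and 8.43%, the median was 0.26, and HMOX1 (2.01, adjusted p = 1.82e-04) was the only one called.

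At 24 h 15 of these 17 target genes were tested. With i-BET858 10 rose and 0 fell, against 20.5% and 21.3% of all genes, and the median was 0.90. TXNRD1, thioredoxin reductase, rose by 1.38 (SE 0.12, edgeR adjusted p = 9.55e-06), GCLC by 1.44, FTL, ferritin light chain, by 1.08 and OSGIN1 by 1.67. With i-BET151 6 rose and 3 fell, against 17.2% and 16.6%, and the median was 0.57. TXNRD1 (1.18) and GCLC (1.05) were called higher and PIR (−1.02) lower.

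Of 11 genes of the AP-1 family, which form dimers with MAF proteins and share part of their DNA element, 9 were tested. At 4 h 6 rose after i-BET858, against 14.5% of all genes, and 5 rose after i-BET151, against 7.81%. In both, 0 fell, and the medians were 1.18 and 1.28, beside 0.02 and 0.01 over all genes. JUND rose by 1.78 (SE 0.18, edgeR adjusted p = 3.61e-05) with i-BET858 and by 1.37 with i-BET151, and FOS by 2.11 (SE 0.19, adjusted p = 1.47e-05) and 1.28. JUNB (1.18) and ATF3 (2.18) were also called with i-BET858, and ATF3 (1.33) and FOSB (1.34) with i-BET151. At 24 h 4 rose with each inhibitor, against 20.5% and 17.2%, and 1 fell with i-BET151, against 16.6%. The medians were then 0.46 and 0.38, and FOS was called with both (1.77 and 1.41).

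Genes known from the beta-cell network of MAFA were mostly absent. INS, the insulin gene, had 0 counts in all 18 libraries. Of 18 such genes 7 were tested at 4 h and 8 at 24 h. At 4 h 1 rose and 2 fell with each inhibitor, against 14.5% and 16.3% of all genes for i-BET858 and 7.81% and 8.43% for i-BET151, and the 2 that fell were called. These were NKX6-1, a homeobox factor of beta cells (−1.06, SE 0.24, edgeR adjusted p = 0.00589 with i-BET858, and −1.07, adjusted p = 0.0110 with i-BET151), and KCNJ11, a potassium channel subunit (−1.27, adjusted p = 0.0213, and −1.18, adjusted p = 0.0486). The one that rose, named after its values were seen, was PAX6, a paired-box factor (0.98, adjusted p = 0.00169, and 0.61, adjusted p = 0.0395). PDX1, a homeobox factor of the pancreas also named afterwards, had 0 to 5 counts in the DMSO libraries of 4 h. It passed the filter only through treated libraries, so its difference is given without a test. Its log2 fold change with i-BET858 at 4 h was 2.64, at 0.0839 ± 0.0727 CPM with DMSO and 0.554 ± 0.384 CPM after treatment (SD, n = 3).

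At 24 h 2 of the beta-cell genes fell with i-BET858, against 21.3% of all genes. They were KCNJ11 (−1.64, edgeR adjusted p = 0.00473) and NKX6-1 (−0.45, adjusted p = 0.0477). With i-BET151 0 of them passed, where 16.6% of all genes fell and 17.2% rose. Summed over 6 beta-cell markers, levels were 3.99 to 14.1 CPM per library. Nearly all of this was NKX6-1, with group means of 4.26 to 11.6 CPM, and 3 or 4 of the 6 markers had 0 counts in all 3 libraries of a group.

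Lens crystallin genes and MAF target genes of myeloma were also few. Of 13 crystallin genes 3 were tested at 4 h, with no change past the threshold, and 2 at 24 h, when CRYAB, a small heat shock protein, fell with i-BET858 (−1.81, SE 0.32, edgeR adjusted p = 0.00110) and i-BET151 (−2.56, adjusted p = 2.30e-04). Of all genes, 21.3% and 16.6% fell in these comparisons. Of 6 myeloma targets 4 were tested at 4 h. NUAK1, a kinase, fell with i-BET858 (−1.62, adjusted p = 4.70e-05) and i-BET151 (−1.26, adjusted p = 6.02e-04), and the chemokine receptor gene CCR1, with 13 to 29 counts in the DMSO libraries of 4 h, had 0 counts in all 6 treated libraries of that time. It passed the filter only through the DMSO libraries, so its difference is given without a test. Of all genes, 16.3% fell with i-BET858 and 8.43% with i-BET151 at 4 h. At 24 h 3 were tested and none passed. CCR1 was not tested then, and had 6 to 40 counts in the DMSO libraries and 0 in all 6 treated ones.

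Over the 18 libraries, the genes whose log2 CPM followed MAFA most closely among 16570 were DISP3, LFNG and TRIM24 (Pearson r of 0.973 for each), FA2H (0.972) and RET (0.971). These values rest on libraries that share the treatments and the DMSO groups, and they are given as a description. DISP3, a membrane protein with a sterol-sensing domain, was at 0.435 ± 0.172 CPM with DMSO and 19.3 ± 5.25 CPM with i-BET858 at 4 h (SD, n = 3). At 24 h it was at 0.255 ± 0.221 and 9.91 ± 1.26 CPM. LFNG, a glycosyltransferase that modifies Notch receptors, went from 58.4 ± 11.0 to 267 ± 47.2 CPM at 4 h, and TRIM24, a bromodomain co-regulator, from 36.2 ± 4.08 to 121 ± 16.3 CPM.

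By Spearman's rank correlation the 5 genes closest to MAFA were others, led by SLC8B1 (0.990). Among the small MAFs, MAFG and MAFK had an r of 0.85 over the 18 libraries, and MAFF had −0.73 with MAFG and −0.46 with MAFK. The closest genes by Pearson r were GAPVD1, DOLPP1 and DOT1L for MAFG (0.949, 0.947 and 0.947), COG3, BLCAP and WAPL for MAFK (0.958, 0.943 and 0.939), and GATA2, PHLDA2 and LYAR for MAFF (0.917, 0.917 and 0.903).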

How the data were processed

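The series holds 18 RNA-seq libraries of OVCAR-3 cells, 3 for each of 6 conditions. The values are raw counts per gene, deposited by the authors in 1 table per time point, which was taken from the table's name. Per the study's methods, the authors aligned poly-A paired-end reads to GRCh38 with STAR and took its gene counts, and used DESeq2. The annotation and strand column are not given in the sources used here. Of 58825 genes, 58472 (99.4%) matched GENCODE 44.

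The 3 groups of a time point entered 1 fit in edgeR 4.0.16 (R 4.3.3), using TMM factors, the default expression filter, the quasi-likelihood test and Benjamini-Hochberg adjustment over all genes tested. Changes of an effect with time and the DMSO comparison used all 18 libraries. RPKM used the union of GENCODE exons, and correlations used log2 CPM with a prior count of 2. In the text, rose and fell mean an adjusted p under 0.05, and called means also a fold change of at least 2. Counts of calls leave out MAFA. On simulated counts for i-BET858 at 4 h (17192 genes), this test recovered 144 of 200 changed genes with 1 false call.

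Named genes are the 5 listed genes, NRL, genes within 20 kb or with shared exons (those with values that bear on a member), the partner genes, of each other list at most 4 called genes of highest mean CPM, and the genes closest by Pearson r. The members and lists were chosen with earlier results of these data known.

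After group means were taken out, libraries of the same replicate number correlated across genes at 0.125 to 0.344 at 4 h and 0.145 to 0.330 at 24 h (all 9 pairs each above 0.1), and those of other numbers at −0.311 to 0.285. The ranges overlap, and replicate 3 had counts for fewer genes. Whether the numbers pair the libraries, or replicate 3 alone stands apart, was not tested. The main fit holds no replicate term, and a fit with the replicate block was among the alternatives. The others were DESeq2 1.42.0, DESeq2's size factors, total library size, no filter, at least 10 counts in every library, only the 2 groups compared, all 18 libraries, each library left out, replicates 1 and 2 only, the adjusted p alone and a fold change of at least 1.5. Replicate 3 alone, without a test, was added after the data were seen.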

Additional observations from a re-analysis of the deposited data

Results flagged for a closer look

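For 3 of the listed genes the effect of an inhibitor differed between 4 and 24 h by a test of the difference itself (edgeR, drug by time in a fit of all 18 libraries). With i-BET858 the change was 1.62 on the log2 scale for MAFG, 1.39 for MAFK and −1.16 for MAFF, and with i-BET151 it was 0.81 for MAFG. The 4 h and 24 h values come from separate sets of libraries, each with its own DMSO controls, and whether anything other than the duration of treatment differed between those sets was not tested.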

How the results depend on the processing

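The tally covers log2 fold changes of the listed genes and some values of other named genes. Of 919 alternative values, 828 kept their direction and their side of the threshold, 43 lost it and 31 gained it. The other 17 changed sign, all in values that missed the threshold. The 919 include values of MAFA, which was chosen on its 4 h counts and passed the filter only through treated libraries. Those are no support for the other values. Against DMSO, all 17 alternatives of MAFA kept their side for each inhibitor at each time. Of the gains, 4 were MAFA between the inhibitors at 4 h, and 5 and 4 its change with i-BET858 and i-BET151. The gains with the replicate block given above for BACH1, NFE2L2 and SIRT7 are not among the 31. Calls were counted without MAFA. With i-BET858 at 4 h, 1 of the 4 genes was called, beside 14.1% of all genes, against 3 without a filter (MAF, MAFG and MAFK, beside 8.03%), 2 with the replicate block (15.6%) or total library size (15.4%), 0 in replicates 1 and 2 only (19.4%), 0 to 2 with a library left out, and 2 by the adjusted p alone (30.8%) or at a fold change of at least 1.5 (24.5%). At 24 h 0 were called, against 3 by the adjusted p alone for i-BET858 (41.7% of all genes) and 2 for i-BET151 (33.8%), and 1 for each at a fold change of at least 1.5 (31.3% and 24.4%). For the change of the i-BET151 effect 0 were called, against 1 by the adjusted p alone (13.8%) or at a fold change of at least 1.5 (12.5%). The replicate block changed the calls given beside the results and no other call of a listed gene by its adjusted p, apart from MAFA values that rest on 4 h.

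The DMSO value of MAFA at 24 against 4 h, −0.02, was 0.00718 with DESeq2, 0.00544 with only the 2 groups compared, 0.0263 with total library size, 0.0200 in replicates 1 and 2 only, and −0.71 to 0.66 with a library left out. The MAFF value with i-BET858 at 4 h was −0.28 in replicate 3 alone. With i-BET151 at 4 h it was −0.0431 with total library size, −0.64 in replicate 3 alone and −0.26 to 0.18 with a library left out. Between the inhibitors at 24 h it was −0.0292 with total library size, −0.33 in replicate 3 alone and −0.11 to 0.18 with a library left out. The cause was not tested. Total library size moved the median of all genes from 0.02 to −0.14 for i-BET858 at 4 h. Depth limits MAF and the DMSO levels of MAFA, which rest on 0 to 21 counts.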
